A study of Homo sapiens with 8 samples.

Results

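Replication-dependent histone genes encode the linker histone H1 and the core histones H2A, H2B, H3 and H4 in many near-copies, most of them on chromosome 6 and chromosome 1. Members were taken by symbol, as the protein-coding genes named H2AC, H2BC, H3C or H4C with a number and the genes H1-1 to H1-6. This gave 70 of the 62826 genes in the deposited gene tables, with 13 pseudogenes of the same naming left out. There were 6 H1, 17 H2A, 19 H2B, 13 H3 and 15 H4 genes. By their older names 55 belong to HIST1, 11 to HIST2, 1 to HIST4 and 2 (H2AC25 and H2BC26) to HIST3, and the last, H2BC12L, has an older name outside these series.

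As background, a dividing cell makes these mRNAs in S phase, when new DNA must be packed into chromatin, at a nuclear site called the histone locus body that is organised by NPAT. The typical mRNA has no intron and no poly(A) tail. It ends just after a short stem-loop that is bound by SLBP and cut by a complex holding the U7 small nuclear RNA. Some of these genes also give longer polyadenylated mRNAs, which can be found in cells that no longer divide.

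The cells were LUHMES, 1 conditionally immortalised human mesencephalic line that leaves the cell cycle when tetracycline shuts off its transgene, labelled as wild-type dopaminergic neurons of the midbrain. Every culture was differentiated for 6 days in medium holding tetracycline (1 µg/mL), GDNF (2 ng/mL) and dbcAMP (1 mM). Treated cells then received antimycin A at 25 µM, which blocks respiratory complex III, with oligomycin at 10 µM, which blocks the ATP synthase, for 8 h. Vehicle cells received DMSO. Each group had 4 libraries, from differentiations numbered 2 to 5, and the series text describes each batch as independent with 4 technical replicates. The library kit captures mRNA by its poly(A) tail, so a histone mRNA that ends at the stem-loop is captured poorly, and a level below is that of the captured RNA.

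Libraries held 93.7 to 110 M estimated reads. The first principal component (71.5% of the variance) separated the groups, and vehicle replicate 2 stood apart on the second (10.3%), at -54.8 against 14.5 to 22.9 for the other vehicle libraries. Over the tested histone genes the median difference between vehicle replicate 2 and the other vehicle libraries was -0.01 log2 units. Of 8 neuronal markers 5 fell and 2 rose (62.5% and 25%, beside 30.2% and 27.7% of all genes tested). Their summed level was 4154 to 4264 CPM in treated and 5099 to 5465 in vehicle libraries. Their part in the histone result was not tested. Of the 12 dopaminergic markers, LMX1A had no read, and FOXA2, PITX3, LMX1B and ALDH1A1 had group means of 0 to 0.129 CPM. The list summed to 516 to 684 CPM in treated and 574 to 716 in vehicle libraries, mostly SLC6A3 (570 and 589 CPM), with TH at 15.4 and 7.48, EN1 at 16.8 and 29.3 and NR4A2 at 10.8 and 10.6. The microglial genes summed to at most 0.146 CPM in any library. CPM is the read count divided by the TMM-scaled library size in M reads, and TPM also divides by transcript length.

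The stem-loop was looked for in the members' own transcripts, since an mRNA that ends at it has no poly(A) tail. The histone 3′ stem-loop was searched on the sense strand of GENCODE 29 transcripts, as 16 bases in which the outer and inner stem bases and all loop bases but the last are fixed and the middle stem bases are free. It was found in 28 of the 66 members with a sequence there and in 32 of 19856 other protein-coding genes (0.161%). Of the 36 tested members with a sequence 24 had it. A missing match says only that these letters are not in the annotated transcript. The sites below belong to genes on which the results turn. They are given 5′ to 3′ on the gene's strand in hg38, with the 16 bases of the motif in capitals, and each lies after the stop codon in the 3′ UTR.
H2AC6, chr6:26124664-26124689, plus strand: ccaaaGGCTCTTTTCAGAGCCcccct
H2AC25, chr1:228457364-228457389, minus strand: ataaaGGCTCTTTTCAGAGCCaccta
H2BC15, chr6:27839085-27839110, plus strand: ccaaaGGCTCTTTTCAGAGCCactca
H2BC21, chr1:149886183-149886208, minus strand: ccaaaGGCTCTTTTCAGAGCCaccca
H2BC5, chr6:26158582-26158607, plus strand: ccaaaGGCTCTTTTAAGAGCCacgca
H4C5, chr6:26204996-26205021, plus strand: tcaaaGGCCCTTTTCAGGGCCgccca
H4C8, chr6:26285126-26285151, minus strand: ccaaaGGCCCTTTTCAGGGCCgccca
H4C14, chr1:149833027-149833052, plus strand: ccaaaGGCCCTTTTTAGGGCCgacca
H4C16, chr12:14770719-14770744, minus strand: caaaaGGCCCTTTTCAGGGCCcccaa
The core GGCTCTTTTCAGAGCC was the most frequent, at 16 sites, and every match in an H4 gene had a core starting GGCCC. Annotated transcripts run far past the loop in some of these genes. The distance from the loop's last base to the transcript's end was 1729 bases in H2BC21, 1128 in H2AC6 and 1655 in the longest form of H4C8.

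Most histone genes that could be tested were higher after antimycin A and oligomycin. Of the 70 members 38 passed the filter on low counts, and of these 23 rose, 2 fell and 13 did not pass the edgeR quasi-likelihood test at a Benjamini-Hochberg adjusted p of 0.05 over all 19785 genes tested. Over all genes 57.9% were called, 27.7% higher and 30.2% lower, against 60.5% and 5.26% of the tested histone genes. The median log2 fold change, treated over vehicle, was 0.60 for the tested members and -0.02 for all genes tested. In 21 of the 38 every treated library lay above every vehicle library, which holds for 25.3% of all tested genes, and in 2 of them every treated library lay below (28.2% of all tested genes). With library totals alone as the scaling, all log2 fold changes moved by a median of -0.10, and 21 members were called higher and 3 lower, beside 4280 (21.6%) and 7023 (35.5%) of all genes (5484 and 5977 with TMM).

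**Figure D1:**
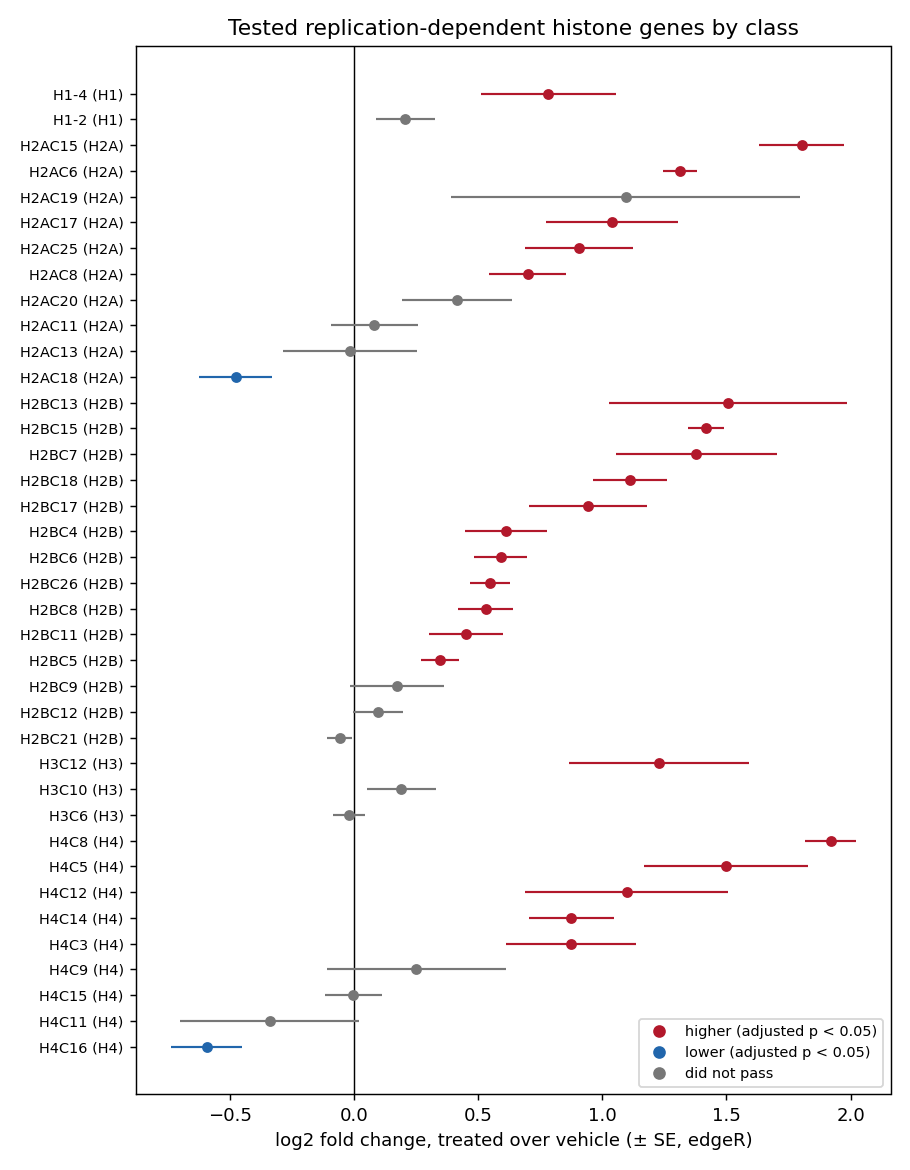
Change in treated against vehicle cells on the log2 scale (x axis, points with ± SE from edgeR) for the 38 tested histone genes, sorted within each class (y axis). The 23 genes in red passed the test upward, the 2 in blue (H2AC18 and H4C16) downward, and the 13 in grey did not pass.

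The filter let 5 of these genes in through the treated libraries (H2AC19, H2BC13, H2BC17, H2BC7 and H3C12), and 4 of the 5 are among the 23. The other 32 members were too low to test. Their mean level was at most 0.0879 CPM, and H2AC1, H2BC1 and H4C7 had no read. Among the low ones were H1-1, H1-3, H1-5 and H1-6, 7 H2A genes, 5 H2B genes, 10 of the 13 H3 genes and 6 H4 genes. With no filter on low counts 67 members entered the test, 25 were called higher and 2 lower, and their median was 0.60, while 16.1% of 36790 genes were called higher and 17% lower.

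Summed over all 70 members, the level was 585, 582, 586 and 579 TPM in treated libraries 2 to 5, and 304, 465, 467 and 502 TPM in vehicle libraries 2 to 5. All 4 treated sums lay above all 4 vehicle sums, with vehicle replicate 2 the lowest. The group means were 583 ± 2.97 and 434 ± 88.4 TPM (SD, n = 4), a ratio of 1.34, and the ratio of CPM sums was 1.32. The members together took 0.0267 to 0.0276% of all reads in treated cells and 0.0189 to 0.0235% in vehicle cells.

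The sums of H2A and H4 genes moved most. H2A genes rose from 43.0 ± 8.91 to 82.7 ± 2.60 summed CPM (ratio 1.92) and H4 genes from 20.4 ± 1.96 to 33.3 ± 1.13 (1.63). H2B genes stood at 126 ± 2.50 and 141 ± 2.64 (1.1), H1 genes at 2.32 ± 0.163 and 2.84 ± 0.214 (1.23), and H3 genes at 20.4 ± 0.703 and 20.6 ± 0.819 (1.01). The H2B and H3 sums are dominated by 1 gene each, H2BC21 and H3C6, described below. The rise of the H2A sum lay mostly in H2AC25 (mean 22.8 to 42.8 CPM) and H2AC6 (12.04 to 29.9). H2AC25 was low in vehicle replicate 2, at 11.9 CPM. The rise of the H4 sum lay mostly in H4C14 (7.78 to 14.3 CPM) and H4C8 (1.95 to 7.39). The ratios of these sums therefore do not describe all genes of a class. No test is given for these sums, since the genes were chosen with results known.

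**Figure D2:**
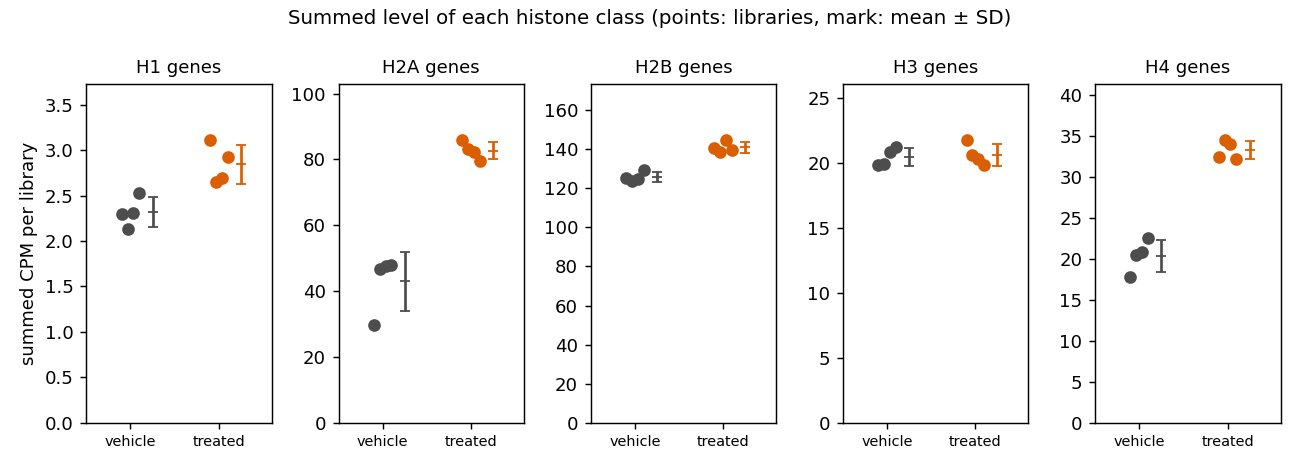
Summed CPM of each histone class per library (y axis, from 0), with 4 points per group and the mean ± SD beside them. In the H2A and H4 panels every treated point lies above every vehicle point, and vehicle replicate 2 is the low H2A point at 29.7 CPM, while the H3 groups overlap.

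The order of levels changed with treatment. In vehicle cells the highest per-length levels were those of H2BC21 (75.3 ± 10.5 TPM), H2AC25 (65.2 ± 24.5), H2BC12 (64.3 ± 14.3) and H2BC5 (52.1 ± 6.24), neighbours that lay within each other's spread. Next came H2AC18 (26.7 ± 6.38), H2AC6 (16.4 ± 2.63) and H3C6 (13.9 ± 2.34). In treated cells H2AC25 was first at 115 ± 3.41 TPM, above H2BC21 (69.7 ± 1.41), H2BC12 (66.6 ± 3.99) and H2BC5 (66.0 ± 4.27), whose spreads overlapped. H2AC6 followed at 38.8 ± 2.90 TPM.

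Linker histones bind the DNA between nucleosomes. The replication-dependent ones were low, with summed means of 2.32 CPM in vehicle and 2.84 CPM in treated cells. The replication-independent linker histone H1-10, not a member, had means of 178 CPM in vehicle and 166 CPM in treated cells. H1-2 was the only H1 gene among the 20 most abundant members. It stood at 2.61, 2.12, 2.12 and 2.23 CPM in treated libraries 2 to 5 and at 1.74, 1.98, 1.96 and 2.18 in vehicle libraries. These ranges overlap, and the log2 fold change of 0.21 ± 0.12 (SE) did not pass (edgeR adjusted p = 0.16). H1-4 passed at 0.78 ± 0.27 (adjusted p = 0.030) from a level of 0.254 ± 0.102 CPM, a call lost when treated replicate 3, 4 or 5 or vehicle replicate 3, 4 or 5 was left out (adjusted p up to 0.071).

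Among the H2A genes, which encode a core histone that pairs with H2B, 5 of 10 tested rose and 1 fell. These are 50% and 10%, beside 27.7% and 30.2% of all genes tested. H2AC6 (ENSG00000180573.10, chr6:26124145-26139116) gave 28.6, 29.1, 29.4 and 32.6 CPM in treated libraries and 11.6, 12.4, 12 and 12.2 in vehicle libraries. The groups are well apart, with a log2 fold change of 1.31 ± 0.07 (edgeR adjusted p = 2.3e-07). H2AC25 gave 46.7, 43.7, 42.5 and 38.1 CPM in treated libraries and 11.9, 25.9, 26.8 and 26.4 in vehicle libraries. Vehicle replicate 2 was the low one, and the fold change was 0.91 ± 0.22 (adjusted p = 0.0047), or 0.69 without that library (adjusted p = 2.3e-05).

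H2AC15 rose most in this class, from 0.309, 0.380, 0.350 and 0.432 CPM in vehicle libraries to 1.56, 1.24, 1.27 and 1.08 in treated ones (1.80 ± 0.17, edgeR adjusted p = 1.2e-05). All of its annotated exon bases lie antisense inside exons of H2BC15, so without known strand its reads cannot be told from those of H2BC15. The reads of both genes summed rose from 4.53 ± 0.142 to 12.4 ± 0.108 CPM (1.45 ± 0.07). H2AC8 (0.70) and H2AC17 (1.04) also rose, the latter with 88.0% of its exon bases shared on the same strand with H3C12.

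H2AC18 and H2AC19 are a near-identical pair on chromosome 1 and moved oppositely. H2AC18 was listed at 2.87, 3.63, 2.86 and 3.74 CPM in treated libraries and at 3.54, 4.56, 5.39 and 4.70 in vehicle libraries, overlapping ranges with a fold change of -0.48 ± 0.15 (edgeR adjusted p = 0.019). Leaving out treated replicate 2 or 4, or vehicle replicate 4, ended that call and left 1 member lower. H2AC19 was at 2.98, 2.63, 3.09 and 1.43 CPM in treated libraries and at 0, 1.88, 1.00 and 1.81 in vehicle libraries, and did not pass (1.09 ± 0.70, adjusted p = 0.21). Reads can be divided between such copies in either way. Their sum was 5.72 ± 1.46 CPM in vehicle and 5.81 ± 0.457 in treated cells, a fold change of 0.02 ± 0.18 (adjusted p = 0.93), and the fall of H2AC18 is therefore uncertain. H2AC20 (0.41), H2AC11 (0.08) and H2AC13 (-0.01) did not pass, and the sign of H2AC13 turned under several alternatives and that of H2AC11 with library totals.

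H2B had the most called members, with 11 of 14 tested genes higher (78.6%, beside 27.7% of all genes tested). None was lower by edgeR, by DESeq2 or at an unadjusted p of 0.05, beside 30.2% of all genes by edgeR. H2BC15 (ENSG00000233822.6, chr6:27837760-27865798) gave 10.9, 11, 11.1 and 11.4 CPM in treated libraries and 4.43, 4.12, 4.10 and 4.00 in vehicle libraries. The spread within each group was small beside the gap, and the fold change was 1.42 ± 0.07 (edgeR adjusted p = 2.2e-07). H2BC18 stood at 2.52, 2.71, 2.89 and 3.16 CPM against 1.6, 1.41, 1.07 and 1.15 in vehicle cells, and rose by 1.11 ± 0.15 (adjusted p = 1.2e-04). H2BC13 gave 0.234, 0.167, 0.114 and 0.115 CPM in treated libraries and 0.0551, 0.0181, 0.0291 and 0.112 in vehicle libraries. Its rise of 1.51 ± 0.48 (adjusted p = 0.021) rests on few reads and did not pass when treated replicate 2 or vehicle replicate 3 or 4 was left out (adjusted p up to 0.067).

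Other H2B genes rose by smaller amounts. H2BC5 gave 18.8, 18, 18.5 and 19.9 CPM in treated libraries and 15.8, 13.1, 15.3 and 14.9 in vehicle libraries, with no overlap (0.35 ± 0.08, edgeR adjusted p = 0.0031). H2BC6 was at 5.35, 5.14, 6.46 and 5.16 CPM against 3.43, 3.51, 3.67 and 4.06 (0.59 ± 0.11), and 28.2% of its exon bases overlap an antisense gene. H2BC26, the neighbour of H2AC25 on chromosome 1, was at 5.65, 5.31, 5.85 and 5.46 CPM against 3.82, 3.93, 3.75 and 3.72 (0.55 ± 0.08). H2BC8 was at 1.41, 1.53, 1.45 and 1.45 CPM against 1.00, 0.995, 0.972 and 1.08 (0.53 ± 0.11). In all 4 genes each treated library exceeded each vehicle library. The low genes H2BC7 (1.38), H2BC17 (0.94), H2BC4 (0.61) and H2BC11 (0.45) rose as well, the last with calls lost under library totals, no filter, and without treated replicate 2 or 4 (adjusted p up to 0.084).

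The H2B gene with the highest level did not rise. H2BC21 (ENSG00000184678.11, chr1:149884459-149886652) gave 81.2, 80.6, 82.8 and 80.4 CPM in treated libraries and 84.3, 83.5, 83.2 and 87.0 in vehicle libraries. Every treated library lay just below every vehicle library, and the fold change of -0.06 ± 0.05 did not pass (edgeR adjusted p = 0.36). With library totals it passed as lower, at -0.15 (adjusted p = 0.044). H2BC12 was at 11.5, 11.1, 12.4 and 9.98 CPM in treated and 8.87, 11.4, 10.6 and 11.1 in vehicle libraries, overlapping groups with a fold change of 0.10 ± 0.10 (adjusted p = 0.42) that turned to -0.00 with library totals. H2BC9 stood at 0.17 ± 0.19.

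**Figure D3:**
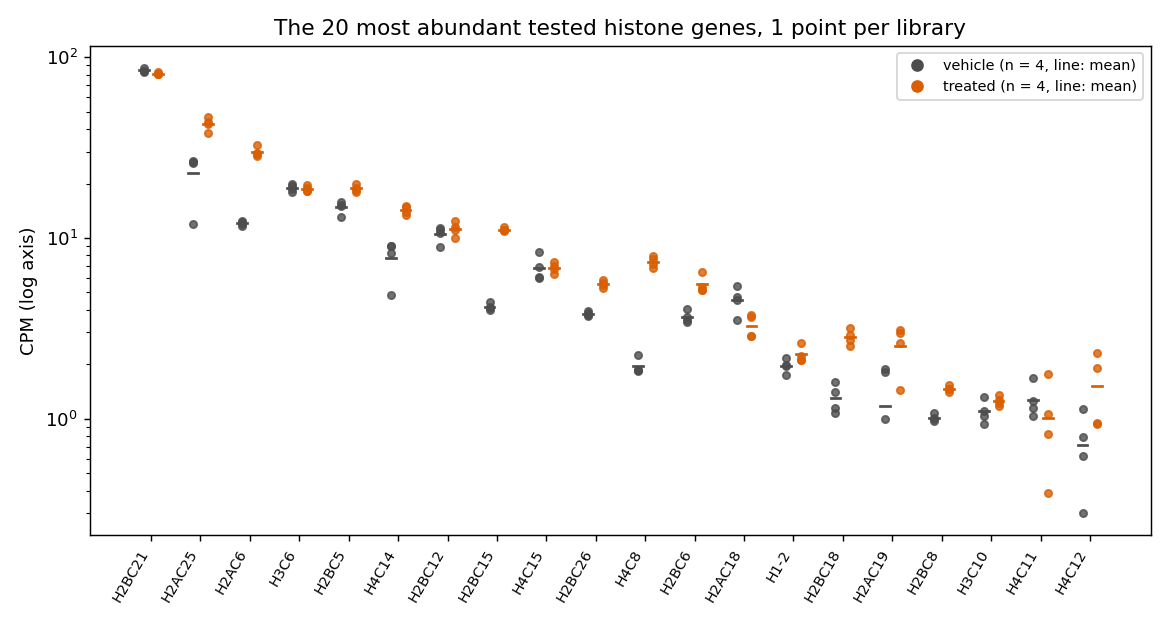
CPM (y axis, log scale) of the 20 tested histone genes with the highest mean CPM, 1 point per library and a line at each group's mean. H2AC6, H2BC15 and H4C8 show groups far apart, H2BC21 and H3C6 lie level in both groups, and the vehicle library of H2AC19 at 0 is not drawn.

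H3, the core histone that carries most of the well-known tail marks, had 3 tested genes of 13. H3C6, which held most of its reads, was at 19.7, 18.9, 18.3 and 18.1 CPM in treated libraries and at 18.1, 18.6, 19.4 and 19.8 in vehicle libraries. The groups cover the same range, and the fold change was -0.02 ± 0.06 (edgeR adjusted p = 0.81). H3C10 was at 1.17, 1.22, 1.36 and 1.28 CPM against 1.32, 0.941, 1.11 and 1.04, also overlapping (0.19 ± 0.14, adjusted p = 0.26). H3C12 passed at 1.23 ± 0.36 (adjusted p = 0.014) from 0.0692 ± 0.0390 CPM, with 44.6% of its exon bases shared with H2AC17. Summed with H2AC17 it rose from 0.265 ± 0.101 to 0.561 ± 0.110 CPM (1.09 ± 0.27).

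H4, which pairs with H3 in the nucleosome core, had 5 of 9 tested genes higher and 1 lower. These are 55.6% and 11.1%, beside 27.7% and 30.2% of all genes tested. H4C8 (ENSG00000158406.6, chr6:26277609-26285638) had the largest rise of the tested members. It gave 7.17, 7.90, 7.67 and 6.81 CPM in treated libraries and 2.25, 1.86, 1.84 and 1.87 in vehicle libraries (1.92 ± 0.10, edgeR adjusted p = 2.8e-07). H4C5 was at 0.742, 1.03, 0.693 and 0.837 CPM in treated and 0.507, 0.127, 0.262 and 0.285 in vehicle libraries, without overlap (1.5 ± 0.33, adjusted p = 0.0029). H4C3 rose from a lower level (0.87 ± 0.26), and H4C9 stood at 0.25 ± 0.36.

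H4C14 and H4C15 on chromosome 1 are near-identical copies. H4C14 was listed at 13.5, 14.9, 14.8 and 14 CPM in treated and 4.83, 9.0, 9.03 and 8.28 in vehicle libraries (0.87 ± 0.17, edgeR adjusted p = 0.0014). H4C15 was listed at 6.98, 6.32, 6.74 and 7.35 against 6.93, 6.11, 6.04 and 8.31 (-0.00 ± 0.11, adjusted p = 0.99). Only 1.44% of the 31-base windows of H4C14 occur in no other gene, and the summed reads of the pair rose from 14.6 ± 2.04 to 21.1 ± 0.483 CPM (0.53 ± 0.10, adjusted p = 0.0011).

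H4C11 and H4C12 on chromosome 6 are such a pair too. H4C12 was at 1.91, 2.32, 0.931 and 0.942 CPM in treated and 0.794, 0.624, 1.14 and 0.302 in vehicle libraries, overlapping ranges with a fold change of 1.10 ± 0.41 (edgeR adjusted p = 0.040). That call was lost under 5 of 14 alternatives, among them leaving out treated replicate 2 or 3 or vehicle replicate 3 or 5 (adjusted p up to 0.12). H4C11 was at 0.823, 0.389, 1.76 and 1.06 CPM against 1.15, 1.25, 1.03 and 1.68 (-0.34 ± 0.36, adjusted p = 0.45). Their sum passed at 0.35 ± 0.13 (adjusted p = 0.038), with 1.99 ± 0.126 CPM in vehicle and 2.53 ± 0.357 in treated cells.

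H4C16 (ENSG00000197837.4, chr12:14767999-14771131), the 1 tested member outside chromosomes 1 and 6, was lower. It gave 0.640, 0.900, 0.684 and 0.701 CPM in treated libraries and 1.06, 1.16, 1.05 and 1.14 in vehicle libraries. Every treated library lay below every vehicle library (-0.59 ± 0.14, edgeR adjusted p = 0.0053), and the call was lost with a length offset (-0.27, adjusted p = 0.37).

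By position, 28 tested members lie in the chromosome 6 clusters, and 19 of them rose (67.9%, beside 27.7% of all genes tested). None fell, also by DESeq2 and at an unadjusted p of 0.05, beside 30.2% of all genes by edgeR. Their median was 0.66. Of 7 tested members near 150 Mb on chromosome 1, H2BC18 and H4C14 rose and H2AC18 fell (28.6% and 14.3%, median 0.41). Both members of the other pair on that chromosome, H2AC25 and H2BC26, rose. The 26 tested genes of other kinds that lie among the chromosome 6 members (chr6:25726132-27893843) were divided, with 8 higher, 7 lower and a median of -0.00. These counts are near the shares of all genes tested (27.7% and 30.2%). The difference between the histone genes and their neighbours was not tested.

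The count was also taken without members that share much of their annotated sequence. Keeping the 27 tested members with at least 50% of their 31-base windows found in no other gene and at most 50% of exon bases overlapped, 19 rose, 1 fell (H4C16) and the median was 0.61. This selection was made after the values were seen. Its windows and overlaps come from GENCODE sequences, while reads were assigned to deposited transcript versions that differ in some genes. H2AC11, for example, had 2220 windows, but its deposited transcript has 493 bases. The selection therefore cannot show how well the counted reads of each gene could be told apart. Without the HIST3 pair and H2BC12L, 21 of 36 tested members rose and 2 fell.

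The captured reads were assigned mainly to annotated forms that run on past the usual end. Transcripts were called extended where they are over 300 bases longer than the coding sequence, and compact otherwise. Lengths here are those deposited with the transcript estimates, and their transcript versions differ from GENCODE 29 in some genes. The H2BC8 transcript has 489 bases here and 1534 in GENCODE 29, and that of H4C5 has 412 and 1487. Some genes counted as compact would therefore be extended by GENCODE 29 lengths. Extended forms held 86.3 to 87.8% of the members' transcript reads in treated libraries and 87.2 to 87.8% in vehicle libraries, ranges that overlap. Of the 15 tested genes whose reads were mostly extended 10 rose and 1 fell (median 0.55). Of the 21 mostly compact 13 rose and none fell (median 0.70). Over all genes tested 27.7% rose and 30.2% fell. Rises occurred in genes of both kinds by the deposited lengths. H2AC18 and H2AC19 had no matched transcript and are in neither group. H2AC6, H2AC25, H2BC21, H2BC26, H2BC6, H3C6, H3C10 and H4C8 had all matched reads in extended forms. For H2BC21, H2AC25, H2BC26 and H3C10 the extended form was the only matched transcript. For H2BC12, H1-2 and H2BC8, among others, a compact form was the only one. In such genes the annotation fixes the form, so the shares above sort genes by annotation as well as reads. In H2AC6, H4C8, H4C14, H4C15 and H4C16 the share of reads in forms that the annotation labels as targets of nonsense-mediated decay was 88.6, 100, 97.8, 93.3 and 91.1%, a label of the annotation and not a measure of decay.

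H2BC15 shows how the forms moved. Its 4137-base form held 805, 720, 905 and 841 reads in treated and 312, 341, 320 and 342 in vehicle libraries, and its 542-base form held 121, 174, 117 and 114 against 41.8, 89.4, 66.9 and 66.0. Both forms were higher in every treated library. H2BC18 differed in this respect: its 999-base form went from 66.5, 80.8, 53.2 and 74.4 reads in vehicle to 173, 174, 210 and 218 in treated libraries, while its 492-base form stood at 78.7, 75.1, 56.4 and 58.5 in vehicle and 74.9, 69.3, 94.3 and 83.1 in treated libraries.

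Of 9 members with enough reads in several forms, 1 passed the test of transcript usage (diffSpliceDGE with Simes p-values), against 9.34% of 11746 genes. This was H4C14 (adjusted p = 0.0073), whose reads are shared with H4C15. H2BC18 had an adjusted p of 0.91 there and of 0.015 in the gene-level F-test of the same edgeR fit, where H4C14 and H2BC18 were the 2 calls and 26.1% of all genes were called.

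**Figure D4:**
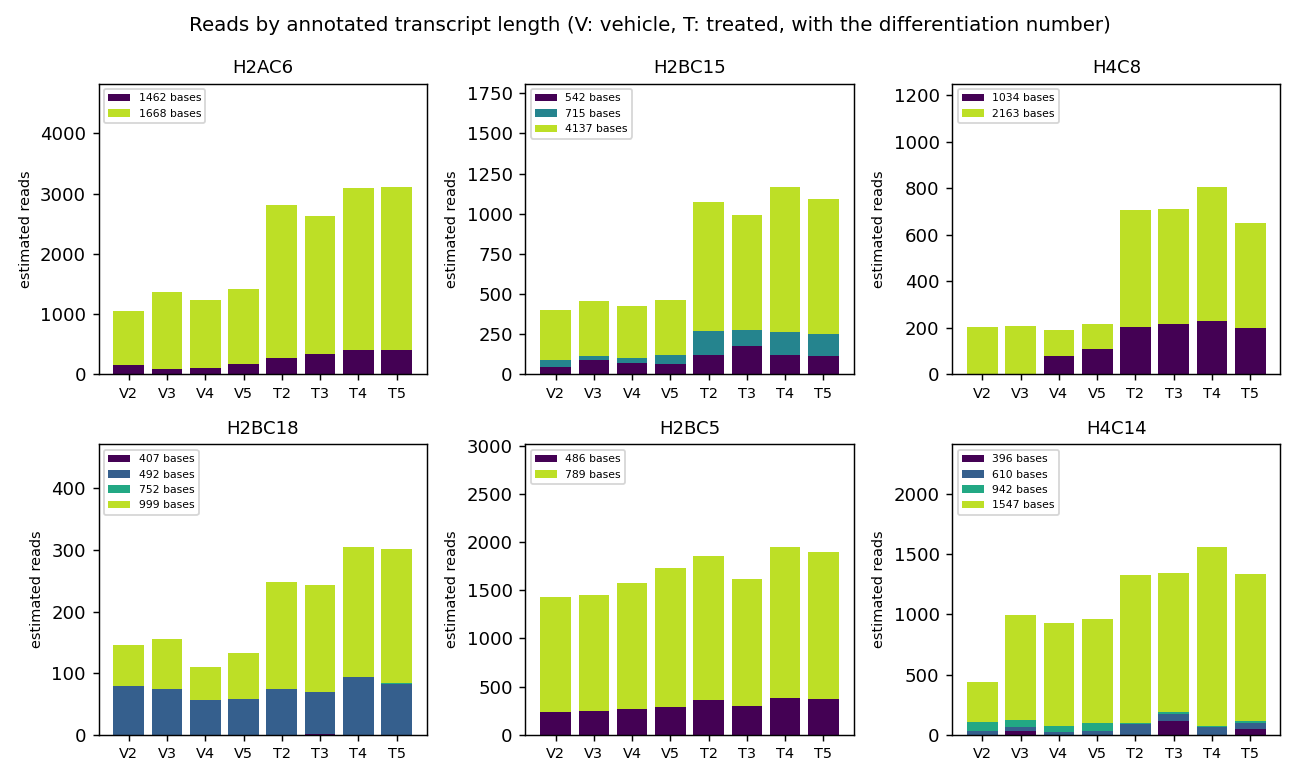
Estimated reads per library (y axis, not scaled to depth) by annotated transcript for 6 histone genes, with vehicle libraries V2 to V5 and treated libraries T2 to T5 on the x axis and colours for transcript length in bases. In H2AC6, H2BC15 and H4C8 the whole bar is taller in treated libraries, and in H2BC18 the 999-base form grows while the 492-base form overlaps between groups.

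H2A and H2B genes often stand head to head and share 1 promoter region. RefSeq start sites place 11 such pairs 194 to 248 bases apart. Both genes were tested in 8 pairs, and both rose in 5 of them: H2AC15 with H2BC15 (1.80 and 1.42), H2AC6 with H2BC4 (1.31 and 0.61), H2AC17 with H2BC17 (1.04 and 0.94), H2AC25 with H2BC26 (0.91 and 0.55) and H2AC8 with H2BC8 (0.70 and 0.53). Reads of H2AC15 cannot be told from those of H2BC15, so that pair does not give 2 separate rises. H2AC17 shares 88.0% of its exon bases with H3C12, so reads in that stretch could come from either gene. The estimates put all H3C12 reads on its 512-base transcript and none on its 522-base one. In 2 pairs the H2B gene alone passed, H2BC13 (1.51) beside H2AC13 (-0.01) and H2BC11 (0.45) beside H2AC11 (0.08). In the last, H2BC21 (-0.06) and H2AC20 (0.41), neither passed.

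Promoter letters were compared because histone genes of a class share known elements. In RefSeq windows on GRCh38.p14, from 250 bases before to 50 after the start, on both strands, CCAAT was found in 54 of 64 members with a window and in 35.7% of all 27305 promoters. TATAAA was in 42 of 64 (12% of all). The octamer ATTTGCAT, read by POU2F1, was in 26 of 64 (1.8% of all), of which 14 were H2B and 11 H2A promoters. The E2F letters TTTCGCGC were in 12 (0.546% of all) and the CRE letters TGACGTCA in 9 (1.98% of all). The letters TGATGCAAT, a composite site for ATF4 with CHOP, were in none of the 64 and in 0.264% of all promoters. Among the 21 rising members with a window 10 held the octamer, 2 the CRE letters and 5 the E2F letters, and among the 13 that did not pass 5, 1 and 3 did. The windows of head-to-head genes overlap, so 1 site can count for both genes, as does the octamer between H2AC6 and H2BC4. The counts are therefore of genes and not of separate sites. These matches are descriptions of the letters and not binding sites.

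The 150 bases before the start are shown for the 2 H4 genes with the largest rises, for the falling H4C16, for the shared H2AC15 and H2BC15 region in the direction of H2BC15, and for H2BC21, with the letters above in capitals on either strand. They are on GRCh38.p14.
H4C8, chr6:26285535-26285684, minus strand: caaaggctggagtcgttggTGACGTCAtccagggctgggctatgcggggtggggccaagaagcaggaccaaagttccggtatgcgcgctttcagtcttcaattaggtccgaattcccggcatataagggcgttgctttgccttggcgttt
H4C5, chr6:26204460-26204609, plus strand: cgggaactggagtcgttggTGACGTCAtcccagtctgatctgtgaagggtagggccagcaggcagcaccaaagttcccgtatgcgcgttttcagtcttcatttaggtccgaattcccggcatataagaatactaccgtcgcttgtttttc
H4C16, chr12:14771132-14771281, minus strand: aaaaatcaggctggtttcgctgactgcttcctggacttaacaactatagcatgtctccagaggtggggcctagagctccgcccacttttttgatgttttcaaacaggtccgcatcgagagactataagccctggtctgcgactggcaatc
H2BC15, chr6:27838419-27838568, plus strand: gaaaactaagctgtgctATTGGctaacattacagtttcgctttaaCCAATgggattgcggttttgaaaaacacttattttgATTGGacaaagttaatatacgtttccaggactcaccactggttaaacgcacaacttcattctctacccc
H2BC21, chr1:149886683-149886832, minus strand: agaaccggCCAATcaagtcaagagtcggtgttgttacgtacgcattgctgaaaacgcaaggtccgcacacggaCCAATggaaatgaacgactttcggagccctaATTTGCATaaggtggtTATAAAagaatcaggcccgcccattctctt
H4C8 and H4C5 hold the CRE letters, the only H4 promoters that do. These 150 bases of H4C16 hold none of the motifs, and H2BC21, which did not pass, holds the CCAAT box, the TATA box and the octamer.

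The genes whose products make histone mRNA moved in both directions, as did all genes tested (27.7% higher and 30.2% lower). Of 17 genes of 3′ end processing 2 rose and 6 fell (11.8% and 35.3%, median -0.13), the latter near the share of all genes. SLBP, the stem-loop binding protein, was at 26.8, 27.4, 27.9 and 30.0 CPM in treated and 33.7, 29.4, 32.8 and 33.1 in vehicle libraries. Those ranges overlap, and its fall of 0.20 on the log2 scale (edgeR adjusted p = 0.030) was lost under 8 of 14 alternatives, among them leaving out treated replicate 2, 3 or 4 or vehicle replicate 4 or 5 (adjusted p up to 0.087). The U7 ribonucleoprotein subunit LSM11 fell (-0.43 ± 0.12) and LSM10, its partner, stood at 0.09 ± 0.12 (adjusted p = 0.56). ZNF473, a zinc finger protein of the same complex, rose from 33.3 ± 0.995 to 49.2 ± 2.75 CPM (0.56 ± 0.06), and SNRPB, a shared core protein, rose by 0.49. The SNRPB call was lost, and 1 gene of the list was higher, with library totals (where 9 were lower), with a block by differentiation number, and when treated replicate 2, 3 or 4 or vehicle replicate 3 was left out (adjusted p up to 0.14). The call was also lost without treated replicate 5 (adjusted p = 0.063). The endonuclease CPSF3 fell from 70.9 ± 2.59 to 47.1 ± 2.23 CPM (-0.59) and CSTF2 by 0.34 on the log2 scale. CASP8AP2, a histone locus body protein also called FLASH, fell by 0.31 on the log2 scale, with the call lost without treated replicate 2, 3 or 4 and under the block by differentiation number (adjusted p up to 0.087).

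Of 9 genes of histone gene transcription 3 rose and 2 fell (33.3% and 22.2%, beside 27.7% and 30.2% of all genes tested, median 0.19). By DESeq2, and without treated replicate 2 or vehicle replicate 2, 5 were higher. NPAT was at 35.6, 38.1, 38.6 and 41.2 CPM in treated and 34.2, 27.9, 29 and 31 in vehicle libraries, each treated library higher (0.33 ± 0.08, edgeR adjusted p = 0.0052). HINFP, a factor that binds H4 promoters, rose by 0.53. The cyclins E, which act with CDK2 on NPAT, fell, CCNE2 by 0.89 and CCNE1 by 0.59 on the log2 scale. Among 10 genes of histone mRNA decay 3 rose (30%), with the exonuclease XRN1 (0.81) and the decapping enzyme DCP2 (1.08) first. PNRC2 fell (-0.46, 10% of the list, median of the list 0.19), while without vehicle replicate 2 the count higher was 5. Of 25 histone chaperone genes 5 rose (20%), or 1 with library totals, and 10 fell (40%, median -0.15). SSRP1 (0.43) and UBN1 (0.31) were higher, and CHAF1B, of the replication-coupled assembly factor CAF-1, fell from 6.56 ± 0.472 to 3.23 ± 0.318 CPM (-1.02), as did ANP32E (-0.59).

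The mRNAs of replication-independent histone variants mostly carry poly(A) tails. Of 12 tested 1 rose and 3 fell (8.33% and 25%, beside 27.7% and 30.2% of all genes tested, median -0.03). H2AZ1 was at 250, 235, 222 and 272 CPM in treated and 98.4, 176, 186 and 179 in vehicle libraries (0.61 ± 0.17, edgeR adjusted p = 0.012), while H2AZ2 fell from 320 ± 13.0 to 232 ± 11.6 CPM (-0.46). H3-3B fell (-0.31) and H3-3A, which encodes the same H3.3 protein, stood at 0.02 ± 0.12, with its sign turned by library totals, a length offset, or without vehicle replicate 2. H1-10 stood at -0.10 ± 0.20 and H2AX at -0.41 ± 0.20, neither past the threshold, and both passed as lower without vehicle replicate 2 (-0.29 and -0.55).

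Genes of S phase moved mostly downward. Of 27 such genes 19 fell and 4 rose (70.4% and 14.8%, beside 30.2% and 27.7% of all genes tested), with a median of -0.56. Their summed level was 742 to 770 CPM in treated and 994 to 1179 in vehicle libraries. The proliferation marker MKI67 was at 32.7, 37.7, 40.3 and 40.8 CPM in treated and 115, 56.9, 90.4 and 88.2 in vehicle libraries (-1.21 ± 0.18, edgeR adjusted p = 2.3e-04), measurable in both groups. TOP2A (-0.56), the replication clamp PCNA (-0.63) and cyclin CCNA2 (-0.68) fell, and in each of these every treated library lay below every vehicle library. The helicase subunits MCM4 (-1.16) and MCM6 (-0.85) had the lowest adjusted p among those that fell, while the licensing factor CDC6 (1.16) and E2F2 (0.95) rose. In bulk RNA, fewer cycling cells and less of these RNAs per cell cannot be told apart.

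Among 14 tested cell cycle inhibitors and G1 regulators 7 rose and 4 fell (50% and 28.6%, beside 27.7% and 30.2% of all genes tested). Their median was 0.16. CDKN1A, which encodes the inhibitor p21, rose from 17.7 ± 3.43 to 182 ± 28.7 CPM (3.36 ± 0.16, edgeR adjusted p = 1.4e-07), and CCND2 rose by 4.39. CCND1 fell by 2.23 on the log2 scale, and RBL1 by 0.66.

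**Figure D5:**
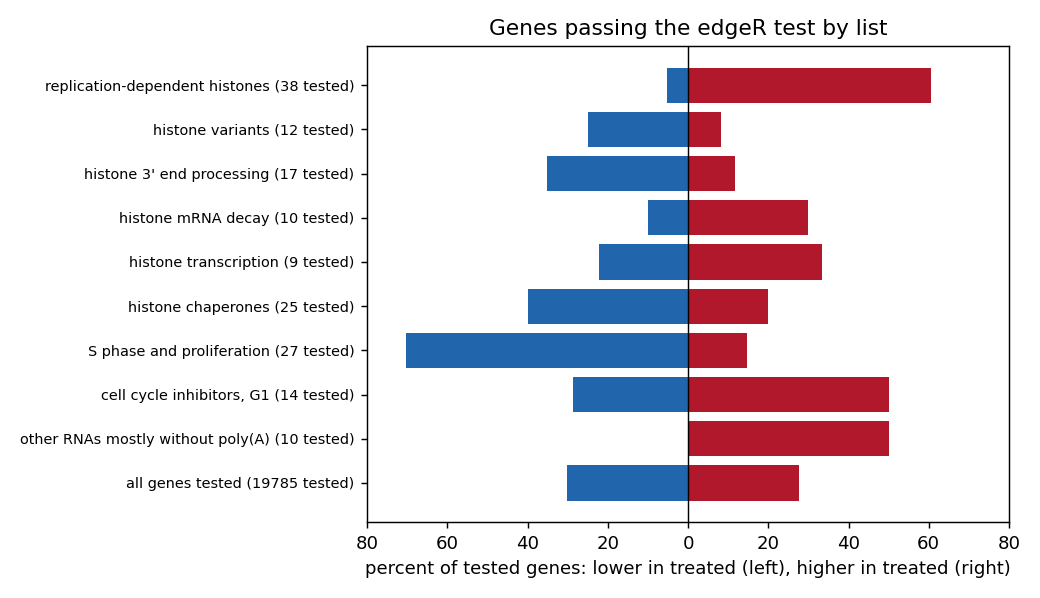
Percent of tested genes in each list that passed the edgeR test upward (red, right) or downward (blue, left) in treated cells, with the number tested beside each name. Histone members stand at 60.5% higher and 5.26% lower, S phase genes at 14.8% higher and 70.4% lower, and all genes tested at 27.7% and 30.2%.

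Other RNAs that mostly lack a poly(A) tail also moved, and RNAs without a tail pass the same capture poorly. How far that holds for the mitochondrial rRNAs in the list was not tested. Of 17 listed 10 were tested, and 5 of these rose (50%, beside 27.7% of all genes tested, median 0.93). By edgeR none fell, nor by DESeq2 or at an unadjusted p of 0.05, and 1 fell without vehicle replicate 2. The 7SK RNA gene RN7SK was at 23.5, 32.0, 33.0 and 37.9 CPM in treated and 21.6, 7.06, 15.6 and 14.6 in vehicle libraries (1.10 ± 0.28, edgeR adjusted p = 0.0064), and RMRP stood at 0.66 ± 0.26 (adjusted p = 0.053). SCARNA2 (0.94) and RPPH1 (0.91) rose. The other 2 of the 5 were the mitochondrial rRNAs MT-RNR1 (2.92) and MT-RNR2 (1.53), which held nearly all of the list's CPM. RN7SL1 stood at -1.54 ± 0.73 and RN7SL2 at -1.08 ± 0.72, neither past the threshold. Both values rest on vehicle replicate 3, at 35.0 and 37.4 CPM against 1.97 to 7.12 in the other vehicle libraries, and without it they were -0.00 and 0.37. RN7SL1 was the 1 that passed as lower without vehicle replicate 2 (-1.90, adjusted p = 0.022). The list summed to 27570 to 39577 CPM in treated and 6006 to 19560 in vehicle libraries, and without the mitochondrial rRNAs to 33.3 to 51.6 and 25.9 to 80.8 CPM. These ranges overlap through vehicle replicate 3 alone, and the other vehicle sums (25.9 to 30.4 CPM) lay below every treated sum. VTRNA1-1 had no read and RNY1, RNY3, RNU4-2 and RNU5A-1 were at or near 0. The part of capture in the histone rise was not tested.

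Markers of other cells were also set beside the histone genes. Of 8 neural progenitor markers 3 rose and 3 fell (37.5% each, beside 27.7% and 30.2% of all genes tested). Their summed level was 381 to 470 CPM in treated and 434 to 484 in vehicle libraries. Of 5 astrocyte markers GFAP and AQP4 were at or near 0 in both groups, and SLC1A3 rose by 3.26, so that the list summed to 28.4 to 30.2 CPM in treated and 2.73 to 3.71 in vehicle libraries. The oligodendrocyte lineage genes summed to 39.1 to 47.4 and 47.9 to 61.8 CPM, with SOX10 near 0. Their part in the histone result was not tested.

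The authors' deposited table of coding genes lists 20 of the members under their older names. By the authors' deposited table, 12 of the 20 are higher and 1, H4C16, is lower at a false discovery rate under 0.05, where 57.7% of its 12898 genes are called, 28.1% higher and 29.6% lower. The median log2 fold change of the members in the authors' deposited table is 0.56, and that of all its genes is 0.00. H4C5 has the largest value there, 2.46 in the authors' deposited table, followed by H4C8 at 1.85, H2AC15 at 1.75 and H2BC15 at 1.38. For H2BC21 the authors' deposited table gives -0.06 with a false discovery rate of 0.56. Its values rest on the same libraries and are no independent support.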

How the data were processed

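The authors deposited, for each of the 8 libraries, estimated counts, effective lengths in bases and TPM per gene and per transcript, per the file headers. The columns have the layout salmon writes, with quantifier, settings and use of strand not given in the sources used here. Per the submitters' processing notes, HISAT2, SAMtools, StringTie and hg38 were used. The coding gene table that the authors deposited holds log2 fold changes, p-values and false discovery rates, per the file headers. Estimated counts were rounded, filtered with filterByExpr and scaled with TMM, and tested with edgeR 4.0.16 (quasi-likelihood F-test, R 4.3.3, no covariate, Benjamini-Hochberg over all genes tested, threshold 0.05). The SE is the fold change over the root of its F statistic. Transcript usage was tested on transcripts that reached 10 reads in 4 or more libraries. Alternatives were DESeq2 1.42.0, library totals, no filter, a length offset, protein-coding genes alone, a block and leaving out each library. The fits were tested on simulated data with known changes, of which the smallest were recovered least often. Coordinates came from GENCODE 29 for 66 members and RefSeq for 4. Members and lists were chosen with earlier results of these data known. Values in every library are given for the 20 tested members with the highest mean CPM and the 5 largest called changes each way (2 downward), 24 genes in all. To these come 20 genes named whatever their result and up to 2 genes per list and direction by adjusted p. Other members are named to account for all. The lncRNA tables were not used here, and 1 gene is not reported here.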

Additional observations from a re-analysis of the deposited data

Results flagged for a closer look

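Of 88 groups of 4 libraries examined, 7 held a library whose gap to the others passed Dixon's 95% critical value, and chance alone gives about 1 in 20. In 5 of the 7 the library was low and was vehicle replicate 2. H2AC25 stood at 11.9 CPM there, against 25.9 to 26.8 in the other vehicle libraries, H2AZ1 at 98.4 against 176 to 186, H1-10 at 104 against 198 to 210, H3-3A at 386 against 577 to 591, and LSM10 at 9.53 against 13.4 to 14.1. H4C8 was high in the same library, at 2.25 CPM against 1.84 to 1.87. H2BC6 was high in treated replicate 4, at 6.46 CPM against 5.14 to 5.35.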

How the results depend on the processing

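Of the 23 members called higher 19 kept their call under all 14 alternatives listed with the methods, none changed sign, and 4 (H1-4, H2BC11, H2BC13 and H4C12) lost it under at least 1. The count of higher members ran from 20 to 26, the latter by DESeq2, and was 20 to 23 with 1 library left out. The count of lower members was 1 to 2 with 1 library left out, 1 under the length offset and 1 among members with mostly unshared annotated sequence. The differentiation number did not pair the libraries (correlations of same-numbered deviations -0.08 to 0.03, and no library correlated best with its own number). With that number as a replicate block 23 members were higher and 2 lower, and end processing had 1 gene higher in place of 2. That list also had 1 higher and 9 lower with library totals, and 1 to 2 with 1 library left out. Chaperones had 1 gene higher with library totals in place of 5. Transcription genes had 5 higher by DESeq2, and 3 to 5 with 1 library left out. Decay genes had 3 to 5 higher then. For the RNAs mostly without poly(A) tails, none was in the fit of protein-coding genes alone, so 0 were called higher. With 1 library left out 0 to 1 were lower. The summed level differed by 149 TPM, 105 without vehicle replicate 2. Transcript usage gave 2 calls by the gene-level F-test.

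Sign changes, none past the threshold unless stated, were these. H2AC13 turned to 0.00448 by DESeq2, 0.000168 under the block and 0.0201 under the length offset, and ran from -0.14 to 0.23 with 1 library left out, turned to 0.0187 without treated replicate 3, 0.101 without treated replicate 5 and 0.228 without vehicle replicate 5. H4C15 turned to 0.0178 by DESeq2, 0.00853 under the block and 0.321 under the length offset, and with 1 library left out ran from -0.0604 to 0.103, turned to 0.0378 (treated replicate 3), 0.0141 (treated replicate 4), 0.00135 (vehicle replicate 2) and 0.103 (vehicle replicate 5). With library totals H2AC11 was at -0.0164, H2BC12 at -0.00428, LSM10 at -0.0158 and H3-3A at -0.0819. H3-3A was at -0.0189 under the length offset, and from -0.107 (without vehicle replicate 2) to 0.0724 with 1 library left out. LSM10 then ran from -0.0274 (without vehicle replicate 2) to 0.149. H1-10 ran from -0.288 (without vehicle replicate 2, past the threshold) to 0.00822 (without treated replicate 5). Summed with its copy, H2AC18 turned to 0.0201, H4C11 to 0.347 and H4C15 to 0.530, the last 2 past the threshold. The cause of each was not tested. Members with mean levels up to 0.0879 CPM were left out by the filter on low counts.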
